A study of Mus musculus with 9 samples.

Results

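The complement list holds 33 genes, chosen by symbol, that encode complement components, their regulators and the receptors for their fragments. All 33 were among the 24008 genes listed for these livers, and all 33 had enough counts to be among the 14379 genes tested. Cfd had enough counts only with the F4MKO + FSTL1 libraries included, as described below. The livers of 9 mice were sequenced as bulk tissue, 3 mice per group with 1 library each, and all were on a high fat and high carbohydrate diet that induces nonalcoholic steatohepatitis (NASH). The Flox group is called WT in the sample labels, and the F4MKO group lacks the transcription factor IRF4 in skeletal muscle. The F4MKO + FSTL1 group carries the same deletion and overexpressed the secreted protein FSTL1. The mice were on a C57BL/6J background. According to the study's methods the deletion used Myl-Cre and floxed Irf4, and FSTL1 came from an AAV8 vector with a muscle creatine kinase promoter, injected into the gastrocnemius. The methods place a GFP vector in the other groups, give 24 weeks of diet in one section and 12 weeks in another, and give 4 weeks from virus injection to collection. The age of the sequenced mice is not in the labels.

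Complement is a cascade of plasma proteins that marks microbes and damaged cells. The classical pathway starts when C1q binds its target, the lectin pathway when mannose-binding lectins bind sugars, and the alternative pathway amplifies either one. All converge on C3 and then on C5, and the terminal components from C5 to C9 assemble a pore in the target membrane. Hepatocytes secrete most of these proteins, macrophages including Kupffer cells make C1q, and factor D (Cfd, also called adipsin) is made mainly by adipocytes.

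Gene counts summed to 20656976 to 24322984 per library, of which the list took 1.44% to 1.80%. Levels are given as CPM, the counts of a gene scaled to the size of the library with TMM factors. Irf4 had 131, 132 and 101 counts in Flox, 120, 128 and 130 in F4MKO and 10, 92 and 116 in F4MKO + FSTL1 livers, and Fstl1 was at 6.15 to 7.62, 9.80 to 16.1 and 3.22 to 5.33 CPM, but liver RNA does not check a deletion or a vector directed to muscle. F4MKO mouse 1 had the largest normalization factor, 1.17 against 0.927 to 1.03 in the other libraries. In this mouse the summed level of 9 hepatocyte markers was 70107 CPM, against 91643 to 109290 CPM in the other libraries. The summed level of 5 cholangiocyte markers was 429.6 CPM in this mouse, 160 and 223 CPM in the other F4MKO mice and 36.1 to 88.9 CPM in the other groups. None of 6 endothelial and 5 tested lymphocyte markers was called in any comparison. Of all genes 0.271% were called in F4MKO and 0.00695% in F4MKO + FSTL1 against Flox, and 14.4% in F4MKO + FSTL1 against F4MKO. In the last comparison 5 of 5 lymphocyte markers (median log2 fold change -0.45) and 2 of 6 endothelial markers were below 0, against 48.6% of all genes. Whether the content of these cells differed was not tested. Without F4MKO mouse 1 the calls of 2 members changed, C5ar1 and C8a, as described below.

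Liver complement RNA spanned about the same range of levels in every group. Per kilobase (kb) of exon, the highest mean levels in Flox livers were those of Vtn (1118 CPM per kb), which encodes vitronectin, an inhibitor of the terminal pore, and C3 (963 CPM per kb), the central component. Clu (678 CPM per kb), which encodes the pore inhibitor clusterin, and Serping1 (437 CPM per kb), which encodes C1 inhibitor, followed. Vtn and C3 overlapped between mice, whereas C3, Clu, Serping1 and Mbl2 (340 CPM per kb) were each apart from the next gene in every Flox mouse. At the low end stood the receptors C3ar1 (1.49 CPM per kb) and C5ar1 (0.982 CPM per kb), C7 (0.308 CPM per kb) and Cd46 (0.166 CPM per kb), a membrane regulator that mice express mainly in testis. Cfd was at 1.64 CPM per kb in Flox livers, at 0.303 CPM per kb in F4MKO livers and at 40.6 CPM per kb in F4MKO + FSTL1 livers.

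**Figure D1:**
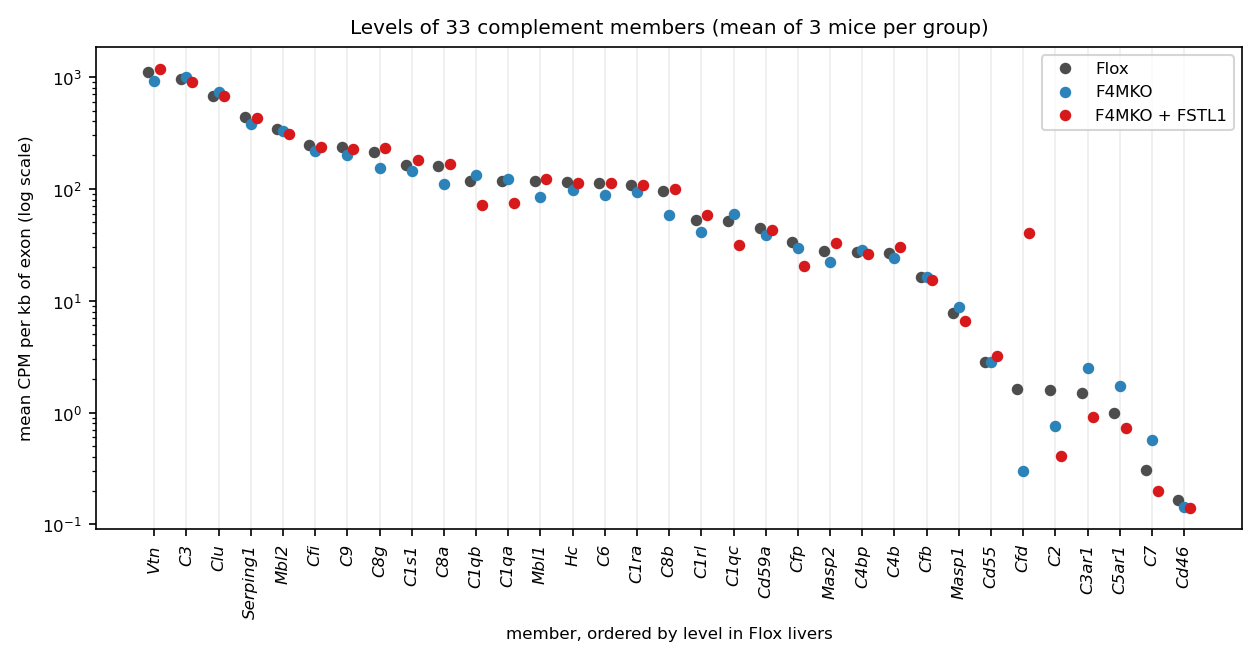
Mean level of each of the 33 complement genes in CPM per kb of exon (log scale), with 1 point per group (n = 3 mice) and genes ordered by their level in Flox livers. The points of most genes lie close together, and Cfd runs from 0.303 in F4MKO to 40.6 in F4MKO + FSTL1 livers.

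The genes on which the results below turn lie partly in neighbouring pairs. On mouse chromosome 4 (GRCm38, GENCODE vM21), C1qb, C1qc and C1qa lie in a row on the minus strand within 18675 bases, from 136880129 to 136898803, with no other member between them. C8b, on the plus strand, and C8a, on the minus strand, lie 11130 bases apart on the same chromosome, from 104766317 to 104876398. Promoters from RefSeq (GRCm38.p6, 250 bases before to 50 bases after the start site, each read 5′ to 3′ on the gene's own strand) were found for 25 of the 33 genes. Those of C1qb and C1qc, of C8a and C8b and of Cfd are printed because these genes moved together or moved most. Capitals mark the motifs found in them.
C1qb (chr4:136886151-136886450, minus strand): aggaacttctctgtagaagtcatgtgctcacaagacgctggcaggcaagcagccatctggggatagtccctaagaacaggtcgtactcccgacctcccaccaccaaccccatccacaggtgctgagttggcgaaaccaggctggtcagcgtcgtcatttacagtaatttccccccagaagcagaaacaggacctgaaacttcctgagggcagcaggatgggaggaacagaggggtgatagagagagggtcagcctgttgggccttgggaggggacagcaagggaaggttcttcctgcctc
C1qc (chr4:136892865-136893164, minus strand): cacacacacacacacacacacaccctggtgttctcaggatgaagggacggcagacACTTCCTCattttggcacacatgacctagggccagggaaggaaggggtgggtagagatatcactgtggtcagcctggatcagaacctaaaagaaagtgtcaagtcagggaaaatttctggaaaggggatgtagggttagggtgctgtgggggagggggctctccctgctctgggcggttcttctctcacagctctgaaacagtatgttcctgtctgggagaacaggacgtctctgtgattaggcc
C8a (chr4:104876349-104876648, minus strand): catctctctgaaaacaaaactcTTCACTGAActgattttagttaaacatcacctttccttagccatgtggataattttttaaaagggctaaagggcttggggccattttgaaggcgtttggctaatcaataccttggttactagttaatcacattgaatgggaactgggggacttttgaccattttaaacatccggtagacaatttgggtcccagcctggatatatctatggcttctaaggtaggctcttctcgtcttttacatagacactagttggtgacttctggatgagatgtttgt
C8b (chr4:104766067-104766366, plus strand): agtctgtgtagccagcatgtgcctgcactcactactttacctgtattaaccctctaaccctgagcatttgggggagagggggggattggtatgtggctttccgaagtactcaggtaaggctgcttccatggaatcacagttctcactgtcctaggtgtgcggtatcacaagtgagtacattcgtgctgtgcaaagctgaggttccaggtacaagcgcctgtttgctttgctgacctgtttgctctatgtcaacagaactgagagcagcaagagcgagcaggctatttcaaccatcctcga
Cfd (chr10:79890603-79890902, plus strand): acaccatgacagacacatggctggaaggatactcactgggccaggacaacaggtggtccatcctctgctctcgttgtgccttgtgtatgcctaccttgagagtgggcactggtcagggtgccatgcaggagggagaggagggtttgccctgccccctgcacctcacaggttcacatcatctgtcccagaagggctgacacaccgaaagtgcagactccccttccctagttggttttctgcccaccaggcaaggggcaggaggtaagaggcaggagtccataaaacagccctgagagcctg

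The letters of 6 motifs were searched on both strands of these windows. The PU.1 letters GAGGAAGT, bound by a factor of macrophages, were in 1 of the 25 promoters (4%, against 3.69% of 27025 genes). That promoter was C1qc, 195 to 188 bases before the start on the opposite strand, where the printed strand reads ACTTCCTC. The STAT letters TTCNNNGAA, which read the same on both strands, were in 5 of 25 (20%, against 9.55% of all genes), among them C8a at 228 to 220 bases before the start. The C/EBP letters TTGCNNAA were in 5 of 25 (20%, against 12.2%), namely C1ra, C1s1, C1rl, C3 and C9. The HNF1 letters GTTAAT, any base, ATT were in 2 of 25 (8%, against 0.47%), Hc and C4bp. The ISRE-like letters GAAA, any 2 bases, GAAA were in 3 of 25 (12%, against 3.99%), namely Vtn, Cd59a and Cd46, and the ETS-IRF letters GGAA, any 2 bases, GAAA, which can overlap them, were in 0 of 25 (against 3.16%). A match is only a run of letters, and these small counts were not tested.

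The comparison of F4MKO with Flox livers asks how loss of IRF4 in muscle relates to complement RNA in liver. No member passed the threshold of an adjusted p under 0.05 and a fold change above 1.5 (0 of 33, edgeR's quasi-likelihood test, p-values adjusted by Benjamini-Hochberg over all 14379 genes), where 0.271% of all genes did. At an unadjusted p under 0.05, 9 members stood out (27.3%, against 16.9% of all genes), of which C1rl, C8a, C8b, C8g, Masp2 and Mbl1 were lower (against 7.51% of all genes) and C3ar1, C5ar1 and C7 were higher in F4MKO livers (against 9.35%). DESeq2, and edgeR with no filter on low counts, called C8b lower and C3ar1 higher (2 of 33, against 2.23% and 1.99% of all genes tested). The levels of 13 members did not overlap between the groups (39.4%, against 21.8% of all genes), 11 of them lower (against 10% of all genes) and 2 higher in F4MKO (against 11.7%). The 22 members that hepatocytes make had a median log2 fold change of -0.22, against -0.003 for all genes, and 17 of 22 had a value below 0, as did 50.6% of all genes. Of 9 hepatocyte markers, 8 had values below 0 too, with a median of -0.28 and 0 called, and their part in the members' values was not tested.

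In F4MKO + FSTL1 compared with F4MKO livers, which asks what FSTL1 overexpression on the knockout background goes with, 8 members passed the threshold (24.2%, against 14.4% of all genes, by edgeR's quasi-likelihood test). C1qa, C1qb, C1qc, C3ar1, C5ar1 and C7 fell (6 of 33, 18.2%, against 11.2% of all genes), and Cfd and C8b rose (2 of 33, 6.06%, against 3.21%). DESeq2 called the same 8 and C8a (9 of 33, against 13.2% of all genes it tested). An adjusted p under 0.05 without a fold threshold was reached by 14 members (42.4%, against 20.9%), 7 higher (against 7.73%) and 7 lower (against 13.1%). This added the higher C1rl, C8a, C8g, Masp2 and Mbl1, with fold changes from 1.41 to 1.50, and the lower Masp1. Levels did not overlap in 19 members (57.6%, against 39%), 10 higher (against 18%) and 9 lower (against 21.1%). The median log2 fold change of all 33 was 0.16, and that of all genes was 0.01. This comparison and the one above share the F4MKO libraries, so opposite signs in them are not independent of each other.

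**Figure D2:**
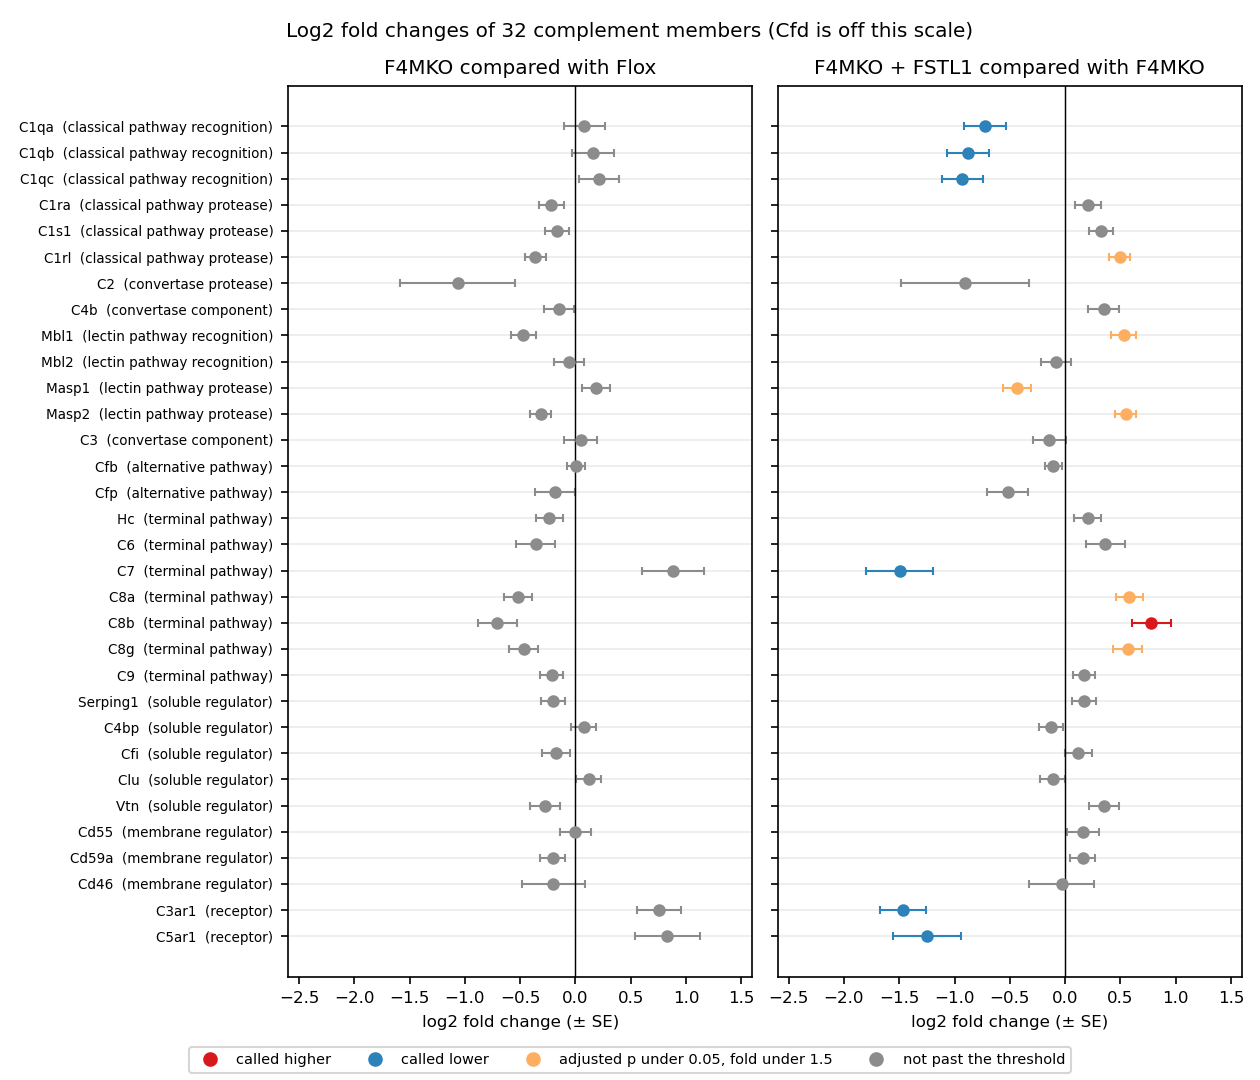
Log2 fold change ± SE of 32 complement genes in F4MKO compared with Flox (left) and F4MKO + FSTL1 compared with F4MKO (right) livers, n = 3 mice per group, with both panels sharing the F4MKO mice. Points are colored by call, none is called on the left, and Cfd (7.02 on the right) is off the scale.

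C1q, the recognition molecule of the classical pathway, is built from the products of C1qa, C1qb and C1qc, and the 3 genes moved together. C1qa was at 112, 104 and 149 CPM in Flox mice, at 129, 122 and 135 CPM in F4MKO mice and at 67.7, 62.5 and 103 CPM in F4MKO + FSTL1 mice. C1qb was at 119, 104 and 162 CPM, at 145, 139 and 146 CPM and at 68.5, 63.7 and 102 CPM in the same order. C1qc was at 86.1, 86.2 and 126 CPM, at 120.4, 118 and 108 CPM and at 56.7, 47.7 and 77.2 CPM. Every F4MKO + FSTL1 mouse was below every F4MKO and every Flox mouse for each gene, and mouse 3 was the highest of the F4MKO + FSTL1 group, close to the lowest Flox mice. Compared with F4MKO, the log2 fold changes were -0.72 ± 0.19 for C1qa (SE, adjusted p = 0.0187), -0.88 ± 0.19 for C1qb (adjusted p = 0.00876) and -0.93 ± 0.19 for C1qc (adjusted p = 0.00601) in edgeR's quasi-likelihood test. C1qa lost its call without F4MKO + FSTL1 mouse 1 (log2 fold change -0.63, edgeR adjusted p = 0.0653) or without mouse 2 (-0.59, adjusted p = 0.0834).

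Compared with Flox, C1q RNA in F4MKO + FSTL1 livers had log2 fold changes of -0.64 for C1qa, -0.72 for C1qb and -0.72 for C1qc, with adjusted p = 0.170, 0.147 and 0.143 in edgeR's test. All 3 passed with DESeq2 (adjusted p from 0.0157 to 0.0402), and all 3 passed in edgeR without F4MKO + FSTL1 mouse 3 (log2 fold changes -0.89 to -0.95, adjusted p from 0.0317 to 0.0410), where 0.688% of all genes passed. In F4MKO compared with Flox livers the log2 fold changes of the C1q genes were 0.08 to 0.21 (adjusted p from 0.585 to 0.862 in edgeR's test). Without Flox mouse 3 they were 0.25 for C1qa, 0.36 for C1qb and 0.42 for C1qc (edgeR adjusted p from 0.340 to 0.612), and without Flox mouse 2 the sign for C1qa turned (-0.02). The balance between the subunits was steady, with 0.879 to 1.02 C1qa counts and 0.722 to 0.852 C1qc counts per C1qb count across the 9 mice.

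Macrophage markers moved with C1q between F4MKO + FSTL1 and F4MKO livers. Of 10 macrophage markers, 8 were lower in F4MKO + FSTL1 than in F4MKO livers (median log2 fold change -0.87), against 48.6% of all genes. Of the 10, 6 were called lower (against 11.2% of all genes), among them Adgre1, Cd68 and Csf1r. The summed level of the 10 markers was 563 to 923 CPM in Flox, 714 to 783 CPM in F4MKO and 340.2 to 528 CPM in F4MKO + FSTL1 mice. No marker was at 0 in all libraries. Measured against the mean of these markers, C1q stood at 3.02 to 3.22 on the log2 scale in Flox, 3.23 to 3.59 in F4MKO and 3.21 to 3.29 in F4MKO + FSTL1 mice. The mean difference between F4MKO + FSTL1 and F4MKO was -0.19 on this scale, and the groups overlapped. Against the 5 markers of resident Kupffer cells alone the difference was -0.63 and the ranges, 3.10 to 3.43 and 3.46 to 4.07, did not overlap. Among those 5, Cd5l was called lower, and Timd4 (log2 fold change 0.51) and Marco (0.08) were not lower. In F4MKO against Flox, 4 of the 5 were below 0 (median -0.36, 0 called), as were 50.6% of all genes. There Timd4 (-1.26) and Marco (-1.41) were lower without overlap (against 10% of all genes). Of the 10 macrophage markers 6 were above 0 (median 0.07), against 49.4% of all genes. The part of macrophage number in the C1q values was not tested. In whole liver pieces, fewer cells of a type and less RNA per cell cannot be told apart.

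**Figure D3:**
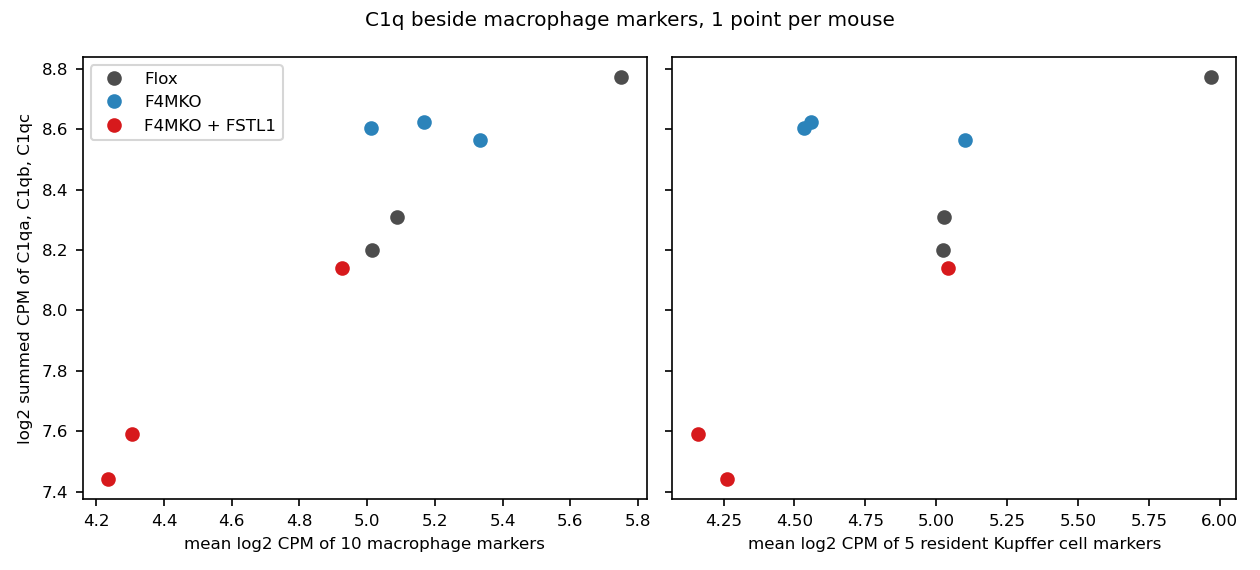
Log2 of the summed CPM of C1qa, C1qb and C1qc (vertical axes) against the mean log2 CPM of 10 macrophage markers (left) and of 5 resident Kupffer cell markers (right), with 1 point per mouse. The F4MKO + FSTL1 mice are lowest on the vertical axis, and on the right the F4MKO mice lie above the Flox and F4MKO + FSTL1 mice of like marker level. Of the 5 markers on the right, 4 had log2 fold changes below 0 in F4MKO against Flox (against 50.6% of all genes).

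The receptors for the fragments C3a and C5a, which myeloid cells carry, also fell in F4MKO + FSTL1 livers. C3ar1 was at 5.80, 5.61 and 7.85 CPM in Flox mice, at 13.8, 9.38 and 9.30 CPM in F4MKO mice and at 3.92, 3.27 and 4.54 CPM in F4MKO + FSTL1 mice. None of the 3 groups overlapped another, with F4MKO highest and F4MKO + FSTL1 lowest. The log2 fold change was -1.47 ± 0.21 against F4MKO (SE, edgeR adjusted p = 0.00159), 0.75 ± 0.20 for F4MKO against Flox (adjusted p = 0.106) and -0.72 ± 0.21 for F4MKO + FSTL1 against Flox (adjusted p = 0.181). C5ar1 was at 3.12, 1.97 and 2.49 CPM in Flox, at 6.44, 4.36 and 2.63 CPM in F4MKO and at 2.06, 1.92 and 1.67 CPM in F4MKO + FSTL1 mice. Its log2 fold change was -1.25 ± 0.31 against F4MKO (edgeR adjusted p = 0.0161), and F4MKO mouse 1 was the highest of all. Without that mouse the value was -0.89 (adjusted p = 0.0679), and without F4MKO + FSTL1 mouse 2 it was -1.26 (adjusted p = 0.0571), so the call was lost in both. Neutrophils carry C5ar1 as well. Of 8 neutrophil markers 5 were tested and Retnlg, Ly6g and Camp were under the filter. Against F4MKO 5 of the 5 had values below 0 (median -1.08), as did 48.6% of all genes. Csf3r was the 1 called lower (against 11.2% of all genes). Ngp had 0 to 18 and Cxcr2 1 to 18 counts in these libraries, and the part of neutrophils in the C5ar1 values was not tested.

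C7, which binds the growing pore to the membrane and is made outside hepatocytes as well, was at 0.847, 0.778 and 0.843 CPM in Flox mice. It was at 1.49, 1.80 and 1.28 CPM in F4MKO mice and at 0.748, 0.481 and 0.366 CPM in F4MKO + FSTL1 mice. The groups did not overlap, with F4MKO highest, and the counts behind these values were low, from 7 to 43 per library. C7 fell by 1.50 ± 0.30 (log2, SE) in F4MKO + FSTL1 compared with F4MKO livers (edgeR adjusted p = 0.00624), and F4MKO was 0.88 ± 0.28 above Flox (adjusted p = 0.156). Stellate cell markers ran the same way, with 9 of 10 lower (against 48.6% of all genes) and 5 called lower (against 11.2%) against F4MKO (median -0.75). In F4MKO 9 of 10 were above Flox (against 49.4%, median 0.30, 0 called). The summed level of the stellate cell markers was 560 to 617 CPM in Flox, 678 to 766 CPM in F4MKO and 392 to 540.4 CPM in F4MKO + FSTL1 mice. Cholangiocyte markers ran this way too, with 5 of 5 lower (against 48.6%) and 4 called lower (against 11.2%) against F4MKO (median -1.93). In F4MKO 5 of 5 were above Flox (against 49.4%, median 1.11), and 2 were called higher (against 0.202% of all genes). The part of stellate cells or of any other cell type in the C7 values was not tested.

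**Figure D4:**
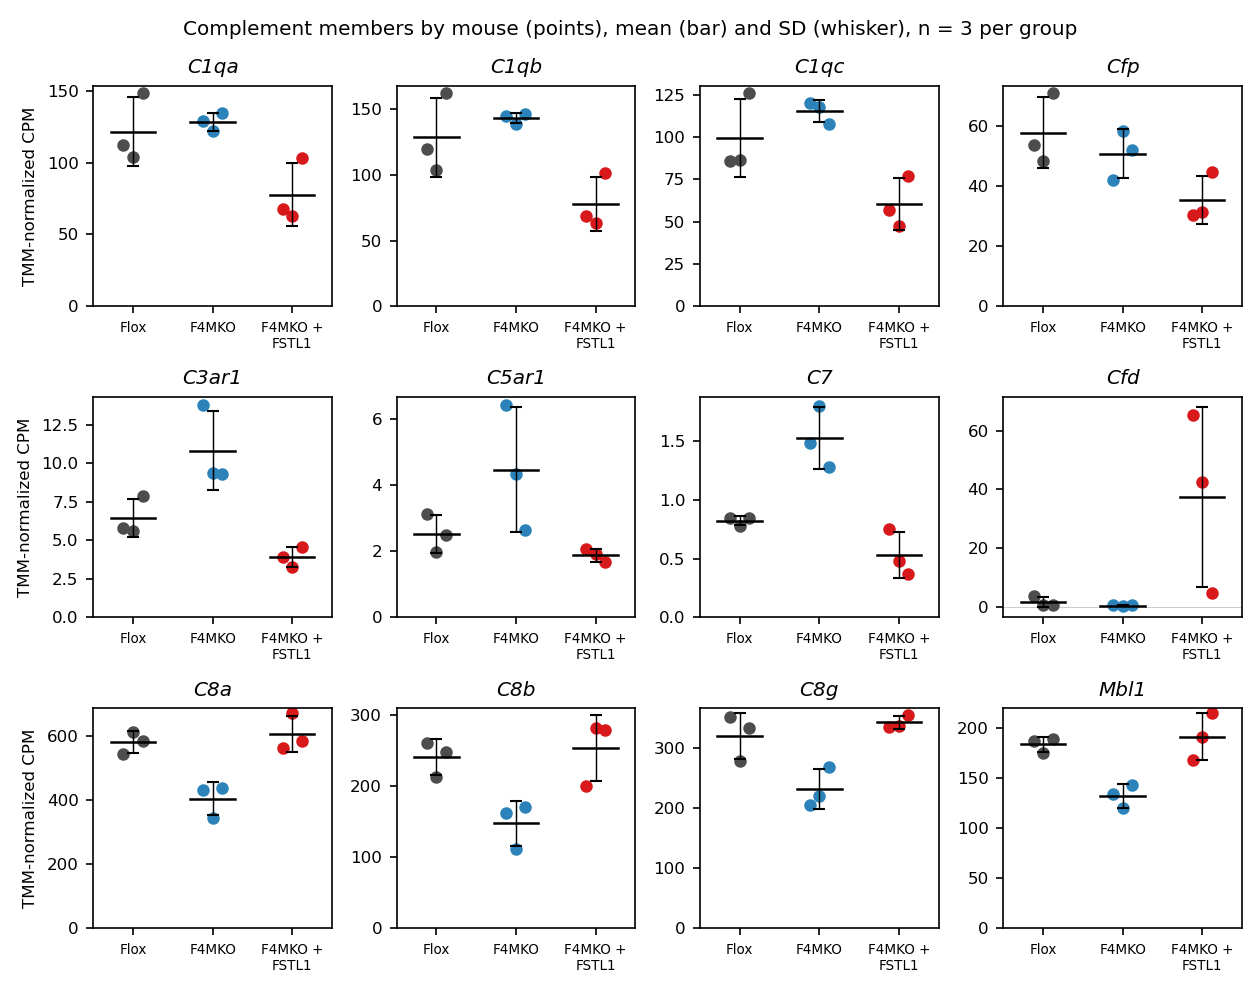
TMM-normalized CPM of 12 complement genes in each mouse (points), with the mean (bar) and SD (whisker) of 3 mice per group and vertical axes from 0. C1q, C3ar1 and C7 are lowest in F4MKO + FSTL1 mice, the C8 genes and Mbl1 are lowest in F4MKO mice, and 1 of 3 F4MKO + FSTL1 mice has a Cfd level close to that of the highest Flox mouse.

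C8, the component that first enters the membrane, has 3 chains, and their genes are expressed in hepatocytes. C8b, the beta chain, was at 261, 213 and 248 CPM in Flox mice, at 161, 112 and 170.1 CPM in F4MKO mice and at 200.3, 282 and 279 CPM in F4MKO + FSTL1 mice. Every F4MKO mouse was below every mouse of the other groups. C8b rose by 0.78 ± 0.18 (log2, SE) in F4MKO + FSTL1 compared with F4MKO livers (edgeR adjusted p = 0.0109), a 1.72-fold change, and F4MKO against Flox gave -0.71 ± 0.18 (adjusted p = 0.0964). C8a, the alpha chain, was at 545, 615 and 585 CPM, at 434, 345 and 438 CPM and at 563, 672 and 586 CPM in Flox, F4MKO and F4MKO + FSTL1 mice. C8g, the gamma chain, was at 351, 278 and 333 CPM, at 206, 219 and 269 CPM and at 335, 337 and 356 CPM. In these genes too the F4MKO mice were lowest, and against F4MKO the log2 fold changes were 0.58 ± 0.13 for C8a (edgeR adjusted p = 0.00865) and 0.57 ± 0.13 for C8g (adjusted p = 0.0109), under the fold threshold. The fold of C8a lay at the threshold, and C8a passed with DESeq2, with its size factors in edgeR, with no filter and in 7 of 9 fits that left out a library, that without F4MKO mouse 1 among them. C8g passed without F4MKO mouse 3 or without F4MKO + FSTL1 mouse 1.

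Taking the C8 chains as a sum, Flox mice had 1106 to 1166 CPM, F4MKO mice 676.5 to 877 CPM and F4MKO + FSTL1 mice 1098 to 1292 CPM. Between F4MKO + FSTL1 and Flox livers the log2 fold change of C8b was 0.08 ± 0.18 (edgeR adjusted p = 0.918), with a sign that turned without Flox mouse 2 or F4MKO + FSTL1 mouse 2. The other terminal genes that hepatocytes make, Hc (which encodes C5), C6 and C9, had log2 fold changes of 0.17 to 0.36 against F4MKO and passed no threshold. Across the 9 mice they lay at 576 to 799, 227 to 455 and 496 to 641 CPM. Of 9 hepatocyte markers, 7 were higher in F4MKO + FSTL1 than in F4MKO livers (median 0.32), against 51.4% of all genes. Cyp2e1 and Serpina1c, 2 of the 9, were called higher, against 3.21% of all genes. Alb was -0.08 in the same comparison, and the part of hepatocyte content in the C8 values was not tested.

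In the lectin pathway the recognition genes and the proteases were divided. Mbl1, a mannose-binding lectin, was at 175 to 189 CPM in Flox, 119 to 143 CPM in F4MKO and 168 to 215 CPM in F4MKO + FSTL1 mice, with the F4MKO mice below all others. Its log2 fold change was 0.53 ± 0.11 against F4MKO (edgeR adjusted p = 0.00871), whereas that of Mbl2 was -0.08 ± 0.13 (adjusted p = 0.698). Masp2, the protease that cleaves C4 and C2, was at 0.55 ± 0.09 (adjusted p = 0.00325), and Masp1, which activates Masp2, at -0.43 ± 0.13 (adjusted p = 0.0319). The number of Masp1 counts per Masp2 count was 0.746 to 0.998 in Flox, 1.11 to 1.28 in F4MKO and 0.530 to 0.720 in F4MKO + FSTL1 mice, with no overlap between any groups. Of the exon bases of Masp2, 54.9% are shared with Tardbp on the opposite strand, and whether strand was used in counting is not given in the sources used here, so reads of the 2 genes may be mixed.

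The classical pathway protease genes C1ra and C1s1 and the C1r-like gene C1rl, which hepatocytes express, had values of the opposite sign to C1q. C1ra, C1s1 and C1rl had log2 fold changes of -0.36 to -0.17 in F4MKO against Flox and of 0.21 to 0.49 in F4MKO + FSTL1 against F4MKO. In F4MKO against Flox neither these nor the C1q genes passed the adjusted p, and the sign for C1qa turned without Flox mouse 2. Against F4MKO, C1rl passed the adjusted p (0.49 ± 0.10, edgeR adjusted p = 0.00552), without reaching the fold threshold. C1ra (edgeR adjusted p = 0.221) and C1s1 (0.0564) did not pass. C4b, which joins the C3 convertase, was at 0.35 ± 0.14 (edgeR adjusted p = 0.0942), and its reads may be divided with those of its close copy C4a. C2, the protease of that convertase, was at 1.87, 9.30 and 7.23 CPM in Flox, at 1.80, 1.76 and 5.27 CPM in F4MKO and at 1.45, 1.54 and 1.72 CPM in F4MKO + FSTL1 mice. The Flox mice and the F4MKO mice were widely spread, and the F4MKO + FSTL1 mice were below all others. Against Flox the log2 fold change was -1.97 ± 0.56 (edgeR adjusted p = 0.168), which passed only with no filter on low counts among the alternatives, and no other comparison of C2 passed. Of its exon bases 46.9% are shared with other genes, as are 79.5% of those of its neighbour Cfb, mostly with the read-through gene Gm20547, which is not among the listed genes, so the levels of both are uncertain.

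C3, cleaved in every pathway, showed no difference between groups larger than the spread of the mice. Its level was 4602, 4441 and 5809.9 CPM in Flox, 5107, 5769 and 4471 CPM in F4MKO and 4399, 4925 and 4589 CPM in F4MKO + FSTL1 mice. The log2 fold changes were 0.05 ± 0.15 for F4MKO against Flox (edgeR adjusted p = 0.900), -0.14 ± 0.15 for F4MKO + FSTL1 against F4MKO (adjusted p = 0.531) and -0.09 ± 0.15 against Flox (adjusted p = 0.866). The first changed sign without Flox mouse 1 or 2 or F4MKO mouse 2, and the last without Flox mouse 3. Cfb, the protease of the alternative pathway convertase, was at 44.5 to 48.2 CPM in Flox, 44.43 to 49.1 CPM in F4MKO and 42.3 to 44.41 CPM in F4MKO + FSTL1 mice. The last group was just below both others with no overlap, at log2 fold changes of -0.11 ± 0.08 against F4MKO (edgeR adjusted p = 0.379) and -0.10 ± 0.08 against Flox (adjusted p = 0.671). Cfp, which encodes properdin, the stabilizer of that convertase, was at 48.6 to 71.3 CPM in Flox, 42.2 to 58.4 CPM in F4MKO and 30.4 to 44.7 CPM in F4MKO + FSTL1 mice. Its log2 fold changes were -0.52 ± 0.18 against F4MKO (edgeR adjusted p = 0.0659) and -0.71 ± 0.18 against Flox (adjusted p = 0.146).

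Cfd, the protease that cleaves factor B and that adipocytes secrete as adipsin, showed the largest difference of the list. Its counts were 80, 15 and 8 in Flox mice, 10, 2 and 10 in F4MKO mice and 1399, 882 and 89 in F4MKO + FSTL1 mice. The levels were 3.57, 0.615 and 0.355 CPM, 0.354, 0.0838 and 0.399 CPM and 65.4, 42.4 and 4.65 CPM in the same order. The F4MKO + FSTL1 mice did not overlap the other groups, but mouse 3 of that group was close to Flox mouse 1. Every F4MKO mouse was under 0.432 CPM, the level of the filter's minimum count. Cfd entered the test only with the F4MKO + FSTL1 libraries included, and a fit of the Flox and F4MKO libraries alone left it out. F4MKO mouse 2, with 2 counts, was under the floor of 3 counts. The size of any difference from F4MKO is therefore uncertain, also where fits that left out a library gave like values. Cfd rose by 7.02 ± 1.10 (log2, SE) against F4MKO (edgeR adjusted p = 0.00218), with values of 6.35 to 7.55 when each library was left out in turn. Against Flox the value was 4.64 ± 0.89 (adjusted p = 0.0777), with values of 3.97 to 6.25 when each library was left out, and it passed without F4MKO + FSTL1 mouse 3 (5.17, adjusted p = 0.0295) and with DESeq2 (4.65, adjusted p = 0.00711). F4MKO against Flox gave -2.37 ± 1.39 (edgeR adjusted p = 0.410), and -0.77 (adjusted p = 0.894) without Flox mouse 1.

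Defining adipocyte markers were near 0 beside this. Adipoq, Plin1, Lep and Retn together had 1, 1 and 1 counts in Flox, 2, 1 and 1 in F4MKO and 1, 4 and 2 in F4MKO + FSTL1 libraries. Of 9 listed adipocyte markers, 5 were under the filter, and of the other 4, which liver also expresses, Lipe was called higher against F4MKO and Fabp4, Cidec and Pparg were at -0.09 to -0.28. In F4MKO + FSTL1 mice 1 and 2, which had the highest Cfd levels, the 1 and 4 counts of the defining markers were all from Retn. Retn had 0 counts in every Flox and F4MKO library and in F4MKO + FSTL1 mouse 3. Its 1 and 4 counts lie around the floor of 3 counts, and Retn was under the filter. The part of adipocytes in the Cfd values was not tested.

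None of the 8 regulators was called by edgeR's test, where 0.271% of all genes were called in F4MKO against Flox, 14.4% in F4MKO + FSTL1 against F4MKO and 0.00695% in F4MKO + FSTL1 against Flox. Clu was at 2422, 2189 and 2379 CPM in Flox, at 2753, 2406 and 2438 CPM in F4MKO and at 2259, 2314 and 2459 CPM in F4MKO + FSTL1 mice. Its log2 fold changes were 0.12 ± 0.11 for F4MKO against Flox (edgeR adjusted p = 0.631) and -0.11 ± 0.11 for F4MKO + FSTL1 against F4MKO (adjusted p = 0.523), and without F4MKO mouse 1 they were 0.06 and -0.05. Vtn was at 2395, 2042 and 2371 CPM in Flox, at 1637, 1980.5 and 2022 CPM in F4MKO and at 2105, 2561 and 2516 CPM in F4MKO + FSTL1 mice. All F4MKO mice were below all others for Vtn, with log2 fold changes of -0.27 ± 0.14 against Flox (edgeR adjusted p = 0.338) and 0.35 ± 0.14 for F4MKO + FSTL1 against F4MKO (adjusted p = 0.0901), and -0.18 and 0.26 without F4MKO mouse 1. Serping1, Cfi (the protease factor I that cuts C3b) and C4bp had log2 fold changes between -0.20 and 0.17 in these 2 comparisons, at 848 to 1055, 410.4 to 588 and 152 to 200.1 CPM across the mice. The membrane regulators Cd55, Cd59a and Cd46, which shield host cells, lay between -0.20 and 0.16, and Cd46 rested on 17 to 38 counts per library.

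Between F4MKO + FSTL1 and Flox livers no member passed the threshold (0 of 33 by edgeR's quasi-likelihood test, where 0.00695% of all genes did). At an unadjusted p under 0.05 there were 8 members (24.2%, against 13.4% of all genes), the lower C1qa, C1qb, C1qc, C2, C3ar1 and Cfp (against 9.12%) and the higher Cfd and Masp2 (against 4.26%). DESeq2 called 5 of them, C1qa, C1qb, C1qc, Cfp and Cfd (against 2% of all genes it tested). Levels did not overlap in 10 members (30.3%, against 18.2% of all genes), 8 of them lower (against 10.7%) and 2 higher (against 7.44%). The 22 hepatocyte-made members were divided evenly, with 11 values below 0 (50.1% of all genes) and 11 above, and a median log2 fold change of -0.003.

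Of 36 other complement genes, 33 were listed and 30 had enough counts to be tested. In F4MKO + FSTL1 compared with F4MKO livers 3 of 30 fell (against 11.2% of all genes) and 2 of 30 rose (against 3.21%). In the comparisons of F4MKO and of F4MKO + FSTL1 with Flox, 0 of 30 passed by edgeR's test (against 0.271% and 0.00695% of all genes). Itgam, Itgax and Itgb2, which encode the chains of complement receptors 3 and 4 on myeloid cells, had log2 fold changes of -1.25 ± 0.23, -2.12 ± 0.30 and -1.20 ± 0.19 (edgeR adjusted p = 0.00404, 0.00155 and 0.00239). Itgam was at 1.87, 3.07 and 3.20 CPM in Flox, at 5.31, 4.31 and 4.19 CPM in F4MKO and at 1.83 to 2.10 CPM in F4MKO + FSTL1 mice, and Itgb2 was at 13.8 to 21.5, 20.4 to 29.3 and 9.37 to 12.4 CPM. Itgax was at 4.90, 5.33 and 6.57 CPM in Flox, at 18.9, 9.84 and 9.34 CPM in F4MKO and at 3.92, 2.26 and 2.56 CPM in F4MKO + FSTL1 mice, with no overlap between groups. C4a, the close copy of C4b, rose by 1.38 ± 0.38 (edgeR adjusted p = 0.0250) from 2.51 to 3.93 CPM in F4MKO to 4.75 to 11.4 CPM in F4MKO + FSTL1 mice. Susd4, a membrane inhibitor, rose by 2.07 ± 0.56 (adjusted p = 0.0234) at 11 to 88 counts in these libraries. The median log2 fold change of the 30 genes was 0.18, against 0.01 for all genes.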

How the data were processed

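Liver RNA was sequenced as 150 bp paired-end reads. The authors trimmed reads with Trim Galore (0.6.7), mapped them to mm10 with HISAT2 (2.2.1) and deposited the featureCounts (2.0.1) counts, whole numbers per gene and library with no normalization. The gene annotation, the use of strand and the treatment of reads shared between genes are not given in the sources used here.

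The tests ran in edgeR 4.0.16 (R 4.3.3). Its filterByExpr kept genes by a minimum count of 10 (0.432 CPM at the median library size) and a minimum total of 15. A joint quasi-likelihood model held all 9 libraries, with TMM factors from 0.927 to 1.17 and a mean per group, with a common biological coefficient of variation of 0.150. A call needed a Benjamini-Hochberg adjusted p under 0.05 (edgeR, 14379 genes) and a fold change above 1.5. The standard error of a log2 fold change is its size divided by the square root of the F statistic. A level of 3 counts, the floor, is 0.106 to 0.157 CPM. CPM per kb used the union of the exons of GENCODE vM21, where all 33 symbols were found.

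The members and lists were chosen with earlier results of these data known. Members called in any comparison, and Cfd, C1qa, C1qb, C1qc, C3, Clu and Vtn whatever their calls, were given in every mouse, and other complement genes were named when called. Alternatives were DESeq2 1.42.0, its size factors in edgeR, no filter, the 6 libraries of a comparison alone, a block for the replicate number, the adjusted p with no fold threshold, glmTreat of edgeR at the same fold threshold, leaving out each library, and Kupffer cell markers alone. On simulated data for F4MKO + FSTL1 against F4MKO (14178 genes), 98 genes were changed 2-fold and 99 genes 4-fold. The test called 73.5% of the 2-fold and 91.9% of the 4-fold changes, and 14 of 13981 unchanged genes. Far fewer genes were changed than the 2070 called in the livers. These rates therefore need not hold there or in the other comparisons. Replicates differed beyond counting error (chi-square per degree of freedom 22.2 to 40.3). The labels do not tell more of the mice than their group, so p-values measure the spread between these mice, 3 per group. Each gene had 1 estimate of the spread from all 9 libraries. The p-value of a comparison thus also drew on the mice of the group outside it.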

Additional observations from a re-analysis of the deposited data

How the results depend on the processing

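The precision was limited by 3 mice per group and, for genes such as C7 (7 to 43 counts), by depth. For F4MKO against Flox the 0 calls became 2 with DESeq2 and 2 with no filter (C3ar1 and C8b in both), and they stayed at 0 to 0 when each library was left out. For F4MKO + FSTL1 against F4MKO the 8 calls became 14 with an adjusted p alone and 3 with glmTreat (C3ar1, C7 and Cfd, against 4.31% of all genes), and ran from 6 (without F4MKO + FSTL1 mouse 2, against 8.83%) to 12 (without F4MKO mouse 3, against 15.2%) when each library was left out. For F4MKO + FSTL1 against Flox the 0 calls became 5 with DESeq2, 6 with no filter (C2 added, against 1.58%) and 1 with the replicate number as a block (Cfd, against 0.104%), and ran from 0 to 4 when each library was left out (4 without F4MKO + FSTL1 mouse 3). The cause of these moves was not tested.

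Same-numbered libraries come from different mice, and the correlations of their deviations from the group means ran from -0.0985 to 0.304, so the numbers were not taken as pairs. With the replicate number as a block, 0 members were called in the first comparison and 8 in the second, and over all genes the calls were 134, 2170 and 15, against 39, 2070 and 1 without it.

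Over 33 fold changes of named members and 527 alternative values, 492 kept their direction and their side of the threshold, 9 lost the call, 17 gained it and 9 turned in sign, all of them when a library was left out. The adjusted p with no fold threshold used the main fit, and glmTreat kept its log2 fold changes, so neither could turn a sign. None of the 33 passed the adjusted p without the fold threshold, so the adjusted p alone could change none of them. Over the alternative values, C1qa in F4MKO against Flox ran from -0.024 to 0.25 and C3 from -0.050 to 0.18. In F4MKO + FSTL1 against Flox, C3 ran from -0.17 to 0.038, C8b from -0.0050 to 0.22 and Clu from -0.033 to 0.039. With Kupffer cell markers in place of the full macrophage list, the C1q difference moved from 0.283 to 0.777 for F4MKO against Flox and from -0.191 to -0.627 for F4MKO + FSTL1 against F4MKO. The size factors of DESeq2 moved the median of all genes by less than 0.1 on the log2 scale.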
